A study of Arabidopsis thaliana with 8 samples.

Results

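The RNA of 10 genes of starch synthesis and breakdown was followed through long heat and recovery in whole seedlings of Arabidopsis thaliana. The genes were chosen by their locus identifiers for their place in the pathway, with earlier results of these data known. Out of 64512 loci in the deposited table, 4 were of synthesis (APS1, APL1, APL3 and GBSS1) and 6 of breakdown (SEX1, PWD, SEX4, BAM1, BAM3 and DPE2). All 10 passed the filter on low values. The plants were wild type of the ecotype Columbia, 7 days old by the series' text, and RNA came from 8 strand-specific libraries of total RNA, 2 in each of 4 groups. The controls form the group CTRL. Those of LHS had 30 h of heat at 37 °C. Recovery at 22 °C followed this heat, for 12 h in LHSR12 and for 84 h in LHSR84. Since no label tells whether both libraries of a group had a culture of their own, the p-values reflect the spread of these libraries alone. Neither the hour of harvest nor the age at harvest is given for each group, and the effects of heat, recovery, ageing and daytime cannot be told apart.

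Plants store part of the carbon fixed by day as starch granules in the chloroplast and break the granules down at night into maltose and glucose, which leave the chloroplast. ADP-glucose pyrophosphorylase makes the sugar donor for synthesis, and starch synthases extend the glucan chains. Breakdown begins when dikinases phosphorylate the granule surface, which opens it to beta-amylases, and phosphatases remove the phosphate again. In leaves the RNA of many starch breakdown enzymes is known to cycle over the day under the circadian clock.

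The deposited table gives reads per locus after division by 1 factor for each library, called scaled reads here. Depth at gene loci ran from 18.9 M to 28.3 M reads (M, mega) in the 7 libraries whose counts could be recovered, and the fewest reads of any of the 10 genes in these libraries were 135, for GBSS1 in CTRL replicate 1. HSP101, a heat-induced chaperone gene, stood at 265 and 462 scaled reads in CTRL and at 36972 and 41071 in LHS. HSFA2, a heat shock factor gene, went from 10.8 and 17.2 to 3204 and 3198. Leaf mesophyll markers such as RBCS1A were present in every library, and the summed level of 6 of them was 651926 to 703911 scaled reads in CTRL, 211891 to 239557 in LHS, 319034 to 336629 in LHSR12 and 758288 to 823225 in LHSR84. The summed level of 7 root markers was 3263 to 3736 in CTRL, 1256 to 1433 in LHS, 2872 to 2958 in LHSR12 and 2663 to 2773 in LHSR84, and that of 3 root cap markers was 150 to 192, 28.0 to 28.4, 72.7 to 93.5 and 122 to 131. Over 4 seed markers the sum was 573 to 2573 in CTRL, 56.8 to 605 in LHS, 27.1 to 48.3 in LHSR12 and 180 to 484 in LHSR84, where EM1 was listed at 0. The part of these markers in the results was not tested. In whole seedlings, fewer cells of a type and less RNA per cell cannot be told apart.

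APS1 (AT5G48300) encodes the catalytic small subunit of ADP-glucose pyrophosphorylase and lies at chr5:19570238-19572804 of TAIR10.1. Its RNA stood at 9459 and 10249.7 scaled reads in CTRL, 9749.8 and 9322 in LHS, 6539 and 7318 in LHSR12, and 9843 and 10064 in LHSR84. The LHSR12 libraries were the low ones, and CTRL overlapped with both LHS and LHSR84. APL1 (AT5G19220), which encodes the main large subunit of that enzyme in leaves, is at chr5:6463824-6466831. It had 10624 and 8806 scaled reads in CTRL, 1788 and 1831 in LHS, 5238 and 5734 in LHSR12, and 8484 and 8582 in LHSR84. No group overlapped another, and LHS was lowest. Of the exon bases of APL1, 37.2% are shared with 2 annotated genes on the other strand, which had at most 301 scaled reads in any library.

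APL3 (AT4G39210), a large subunit gene known to respond to sugar, lies at chr4:18259547-18263468. Its values were 272 and 554 in CTRL, 571 and 663 in LHS, 3014 and 2552 in LHSR12, and 879 and 1018 in LHSR84. The CTRL libraries differed from each other by more than those of any other group did in relative terms, and LHSR12 was highest. GBSS1 (AT1G32900) encodes the granule-bound starch synthase that makes amylose and lies at chr1:11920390-11923866. It rose from 183 and 266 scaled reads in CTRL to 609 and 548 in LHS and to 6429 and 6605 in LHSR12, and stood at 392 and 469 in LHSR84. None of these 4 groups overlapped.

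SEX1 (AT1G10760) encodes the glucan, water dikinase that phosphorylates starch and starts its breakdown, at chr1:3580830-3590928. Its values were 30587 and 29395 in CTRL, 6273 and 6937 in LHS, 3504 and 3133 in LHSR12, and 13862 and 12825 in LHSR84. PWD (AT5G26570), at chr5:9261479-9267732, encodes the phosphoglucan, water dikinase that acts on starch which SEX1 has already phosphorylated. PWD had 5246 and 4939.8 scaled reads in CTRL, 2694 and 2915 in LHS, 659.6 and 547 in LHSR12, and 4207 and 3841 in LHSR84. In both dikinase genes no group overlapped another, CTRL was highest and LHSR12 lowest. SEX4 (AT3G52180), a phosphoglucan phosphatase gene at chr3:19349600-19353728, had 2013 and 2238 in CTRL, 984 and 934 in LHS, 674 and 521 in LHSR12, and 1793 and 1975 in LHSR84, the same order of groups.

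BAM3 (AT4G17090) encodes the main beta-amylase of leaf starch breakdown at night and lies at chr4:9604962-9607402. Its RNA was at 4157 and 5235 scaled reads in CTRL, 658 and 678 in LHS, 4689 and 4641 in LHSR12, and 18398 and 16051 in LHSR84. LHS was far below and LHSR84 far above CTRL, while the LHSR12 values lay between those of the CTRL libraries. BAM3 shares 25.2% of its exon bases with 2 genes annotated on the other strand, of which 1 is in the table and had at most 38.5 scaled reads. BAM1 (AT3G23920), a chloroplast beta-amylase gene linked to stress and to guard cells, lies at chr3:8641181-8644449. It had 927 and 1010.5 in CTRL, 2318 and 2829 in LHS, 4814 and 4502 in LHSR12, and 2222 and 1870.1 in LHSR84. All heated and recovering libraries were above CTRL. DPE2 (AT2G40840), the cytosolic enzyme that uses maltose, is encoded at chr2:17044932-17051062 and had 12428 and 11537 in CTRL, 3549 and 3919.8 in LHS, 3286 and 3071 in LHSR12, and 6789.9 and 6929 in LHSR84. CTRL was highest, and the LHS libraries lay just above the LHSR12 ones.

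**Figure D1:**
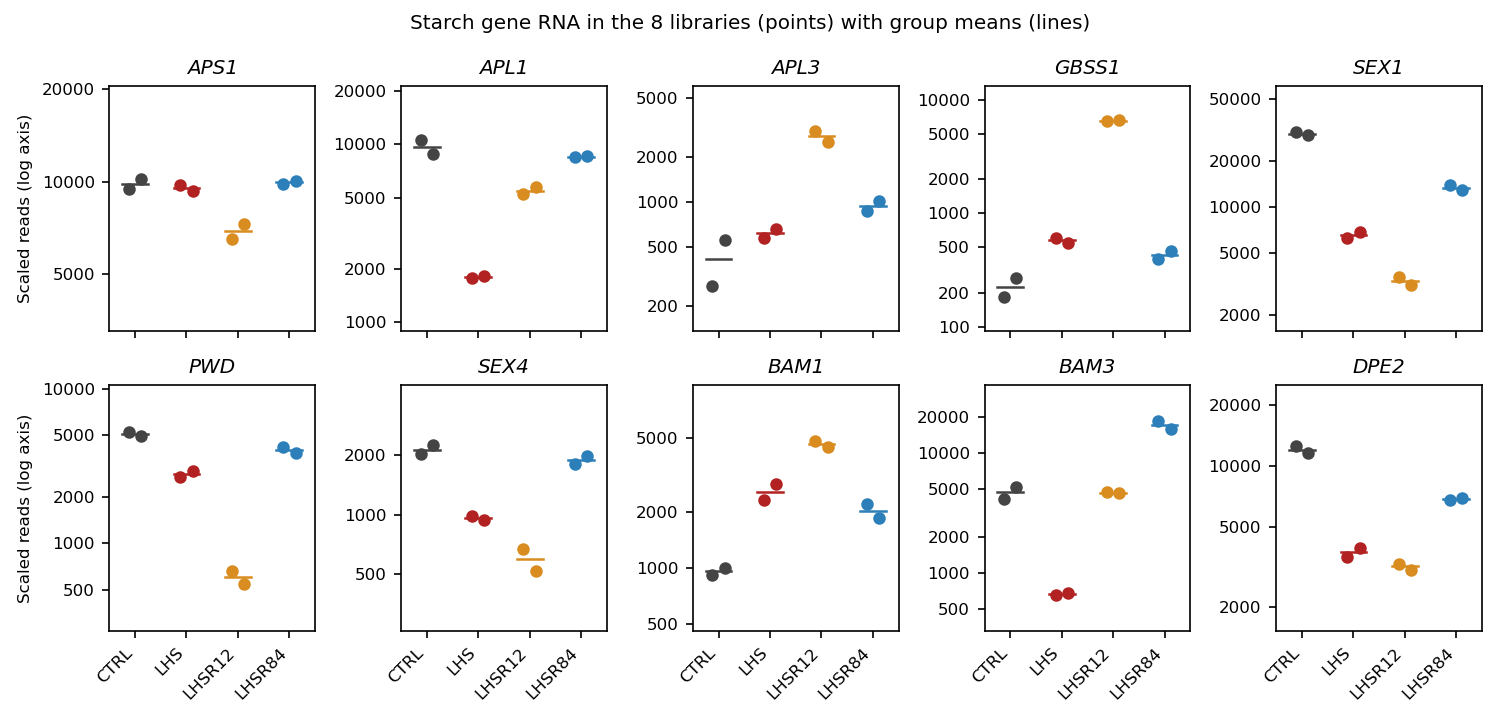
Scaled reads (log axis) of each of the 10 genes in the 8 libraries, as points, with the mean of each group as a line. GBSS1 climbs to 6429 and 6605 in LHSR12, while SEX1 drops to 3504 and 3133 in the same libraries.

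Per kilobase of annotated exon, which allows genes to be compared, SEX1 had the highest mean of the 10 in CTRL at 5951 ± 167 scaled reads per kb (SD, n = 2), and its libraries overlapped in level with those of APL1 at 5609 ± 742, which in turn overlapped with APS1 at 5192 ± 295. DPE2, BAM3, PWD, SEX4, BAM1, APL3 and GBSS1 followed in that order without overlap, down to 97.9 ± 25.7 for GBSS1. APS1 was first in LHS at 5024 ± 159, and SEX1 came next at 1310.5 ± 93.2. Below it DPE2, APL1 and BAM1 lay close together at 1095 ± 76.9, 1044 ± 17.6 and 1022 ± 143, each overlapping with its neighbour. GBSS1 was last in LHS, but in LHSR12 it came after only APS1 and APL1, at 2843 ± 54.4, against 3650.2 ± 290.3 for APS1 and 3167 ± 203 for APL1. PWD held the last place in LHSR12 at 155 ± 20.5, with SEX1 at 658 ± 52.1. By LHSR84 BAM3 was first at 8190.5 ± 789, ahead of APS1 at 5244 ± 82.6 and APL1 at 4927 ± 39.9, and GBSS1 was again last at 188 ± 23.5.

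The evening element, AAAATATCT, is a short DNA motif that the morning clock proteins CCA1 and LHY are known to bind, and it is common near genes with an evening peak. It was searched on both strands from 250 bases before to 50 bases after each annotated gene start of TAIR10.1. SEX1 and PWD held one, 2 of the 10 genes, and so did PGM1, ISA3, DPE1 and GPT2 of 41 further starch pathway genes, against 2.82% of 27444 protein-coding genes. The CCA1 binding site AAAAATCT was in the window of DPE2 and of 4 pathway genes, against 7.88% of all. None of the 10 windows held a G-box, CACGTG, or the heat shock element GAANNTTC, while 7.68% and 11.6% of all windows did and 13 and 3 of the 41 pathway windows did. No match overlapped another in these 51 windows, and a match describes the letters only. The sites with an evening element are printed in the direction of the gene, with the element or its reverse complement in capitals. They were picked because 5 of these 6 genes were lower in LHSR12 than in CTRL. Of all tested protein-coding genes 22.8% were lower there, and of the 670 with an evening element 46.4%. Of the genes with the CCA1 binding site, DPE2 (log2 fold change −1.91) and ISA1 (−0.65) were lower in LHSR12 than in CTRL. AMY1 (2.12) was higher, and PTST1 (−0.25) and the branching enzyme gene AT5G03650 (−0.16) were not called. A link between either motif and these differences was not tested.
SEX1, chr1:3590916-3590940, minus strand: gataaacaAAAATATCTtctgcaat
PWD, chr5:9261438-9261462, plus strand: tatttagaAGATATTTTatggacat
PGM1, chr5:21068513-21068537, minus strand: ttttagtgAGATATTTTagtgtcgc
ISA3, chr4:5783862-5783886, plus strand: gtacaagaAGATATTTTccgggaaa
DPE1, chr5:25928851-25928875, minus strand: agagcaacAAAATATCTcgactgtt
GPT2, chr1:22824324-22824348, plus strand: atattataAAAATATCTgaatagtc

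The element of SEX1 spans the annotated start itself, and that of PWD begins 33 bases before it. The 250 bases before the start are shown for SEX1 and PWD, the genes of the 10 that fell most in LHSR12, and for GBSS1, the one that rose most. Capitals mark the evening element of PWD, and the other windows hold none of the 4 motifs in full. All sequences are from the RefSeq copy of TAIR10.1.
SEX1, chr1:3590929-3591178, minus strand: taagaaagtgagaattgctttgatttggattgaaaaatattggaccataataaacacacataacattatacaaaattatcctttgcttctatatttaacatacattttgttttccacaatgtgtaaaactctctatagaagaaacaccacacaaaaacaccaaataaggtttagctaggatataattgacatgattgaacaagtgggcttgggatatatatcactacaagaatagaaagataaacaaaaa
PWD, chr5:9261229-9261478, plus strand: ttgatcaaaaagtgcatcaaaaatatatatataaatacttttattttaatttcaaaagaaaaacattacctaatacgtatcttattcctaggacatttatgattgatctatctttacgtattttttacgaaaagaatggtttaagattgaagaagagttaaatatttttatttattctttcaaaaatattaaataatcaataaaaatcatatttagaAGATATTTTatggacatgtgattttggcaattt
GBSS1, chr1:11923867-11924116, minus strand: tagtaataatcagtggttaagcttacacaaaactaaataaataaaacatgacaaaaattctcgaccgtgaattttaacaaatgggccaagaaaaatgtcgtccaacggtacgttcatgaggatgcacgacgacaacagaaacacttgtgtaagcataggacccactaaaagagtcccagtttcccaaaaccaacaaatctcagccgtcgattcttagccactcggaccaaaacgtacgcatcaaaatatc

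At the end of the heat SEX1, PWD, SEX4, BAM3, DPE2 and APL1 had lost RNA, while GBSS1 and BAM1 had gained it. In LHS against CTRL 5 of the 6 breakdown genes fell, the exception being BAM1. BAM3 fell 6.97-fold, with a log2 fold change at −2.80 (SE 0.13, adjusted p = 8.08e-07, limma), and SEX1 fell 4.55-fold, −2.18 (SE 0.12, adjusted p = 1.75e-06). DPE2 was at −1.68, SEX4 at −1.15 and PWD at −0.86, with SE of 0.11 to 0.14 and adjusted p of at most 0.000258. BAM1 rose 2.64-fold, 1.40 (SE 0.13, adjusted p = 2.86e-05).

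Among the synthesis genes, APL1 fell 5.34-fold, −2.42 (SE 0.12, adjusted p = 1.05e-06), and GBSS1 rose 2.61-fold, 1.38 (SE 0.18, adjusted p = 0.000166). APS1 was not called, with an interval for the log2 fold change of −0.31 to 0.22 at 95% confidence. APL3 was at 0.66 (95% interval 0.02 to 1.31) and missed the threshold (adjusted p = 0.0653, limma). Without CTRL replicate 2 APL3 was called at 1.17 (adjusted p = 0.000451, limma). Over all alternatives its adjusted p ran from 0.000451 to 0.429. In all, 2 of the 10 genes rose and 6 fell, against 35.4% and 31.1% of the 27638 loci tested (66.5% in either direction), and the median log2 fold change was −1.003 for the 10 genes and 0.09 for all loci. Leaf mesophyll markers fell in LHS too, 6 of 6. So did 6 of 7 root markers, 3 of 3 root cap markers and 2 of the 3 seed markers tested. Of 5 guard cell markers 1 rose and 1 fell. The part of all these markers in the result was not tested.

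Of 41 other genes of the pathway, 14 rose and 19 fell in LHS, with a median of −0.21. The largest falls were in the starch synthase gene SS3 at −2.31, the cytosolic glucan phosphorylase gene PHS2 at −2.30 and the branching enzyme gene SBE2.1 at −2.13. The largest rises were in the cytosolic beta-amylase gene BAM5, from 7.42 to 65.0 scaled reads on average (3.01), in the secreted alpha-amylase gene AMY1 (2.67) and in GPT2 (2.32), which encodes a carrier of glucose 6-phosphate into plastids. Of 20 breakdown genes in this list 9 rose and 8 fell, of 17 synthesis genes 4 rose and 8 fell, and of 4 transporter genes 1 rose and 3 fell. Without LHS replicate 2 the rises of the whole list numbered 8.

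After 12 h of recovery GBSS1, APL3 and BAM1 stood above CTRL and the dikinase genes SEX1 and PWD far below it. In LHSR12 against CTRL, GBSS1 was 29.4-fold higher, with a log2 fold change at 4.88 (SE 0.18, adjusted p = 7.60e-07, limma), APL3 was 7.13-fold higher, 2.83 (SE 0.28, adjusted p = 9.12e-05), and BAM1 4.81-fold higher, 2.27 (SE 0.13, adjusted p = 6.03e-06). SEX1 was 9.05-fold lower, −3.18 (SE 0.12, adjusted p = 8.25e-07), and PWD 8.46-fold lower, −3.08 (SE 0.12, adjusted p = 8.28e-07). DPE2 was at −1.91 and SEX4 at −1.84, with adjusted p of 4.72e-06 and 2.05e-05.

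APL1 and APS1 were lower by smaller amounts, at −0.82 and −0.51 (adjusted p = 0.000740 and 0.00734, limma). BAM3 did not differ beyond its spread, with a 95% interval of −0.30 to 0.30. In sum 3 of the 10 genes were higher and 6 lower, beside 24.8% and 20.0% of all loci (44.9% in either direction). Their median was −0.66, and that of all loci 0.07. Of 6 leaf mesophyll markers 0 were higher and 4 lower, and of 7 root markers 2 were higher and 4 lower. Root cap markers were lower in 2 of 3 and seed markers in 2 of 3 tested, with 0 higher in both. Guard cell markers gave 1 higher and 3 lower of 5. The part of these markers in the differences was not tested. The call of APS1 was lost without LHSR12 replicate 1 (−0.43) and with only the 2 groups compared (−0.51, adjusted p = 0.0529, limma). Across all alternatives the adjusted p of APS1 ran from 0.000288 to 0.0545.

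**Figure D2:**
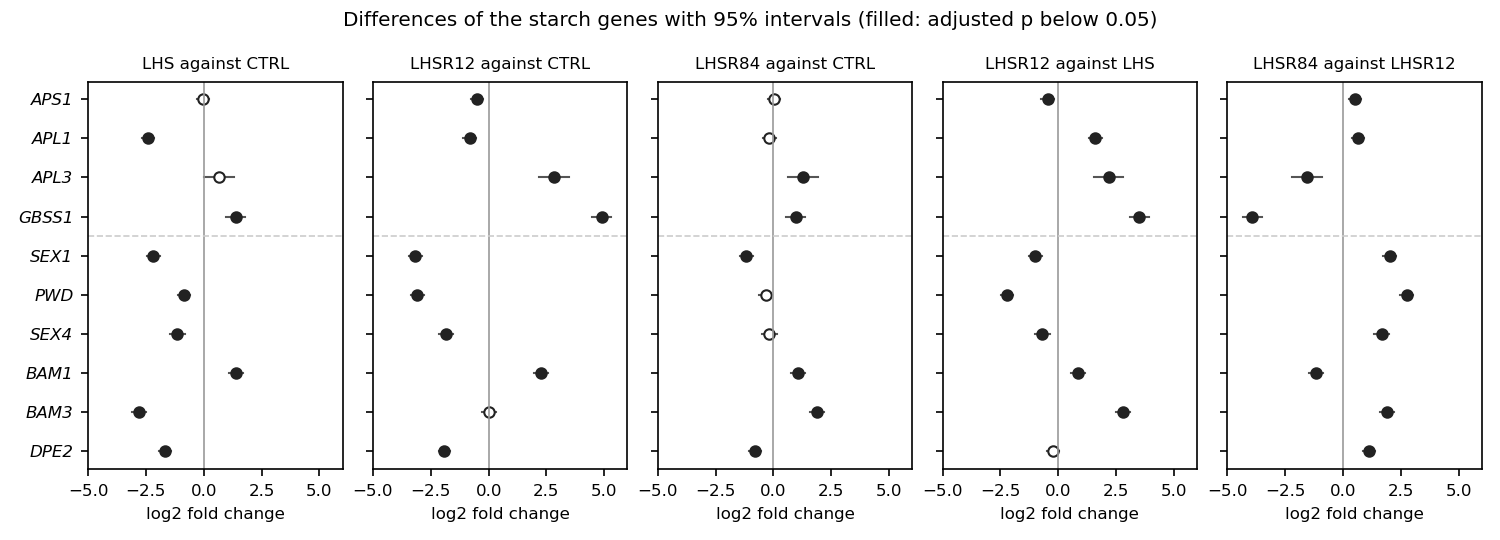
Log2 fold changes (x axis) of the 10 genes in 5 comparisons, with 95% intervals as lines. Filled points passed an adjusted p of 0.05, and the dashed line separates synthesis genes above from breakdown genes below. In LHSR12 against CTRL GBSS1 lies at 4.88 and SEX1 at −3.18.

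Among the 41 other pathway genes LHSR12 exceeded CTRL in 10 and lay below it in 17, with a median of −0.36. PHS2 was the lowest at −4.65, from 18749 ± 179 to 747 ± 35.3 scaled reads (SD, n = 2 each). It was followed by DPE1, the plastid disproportionating enzyme gene, at −3.96 and by the plastid alpha-amylase gene AMY3 at −3.81. GPT2 at 3.92, BAM5 at 3.09 and BAM9, a beta-amylase homologue without the catalytic activity, at 2.46 were the largest rises. Of the 20 breakdown genes 7 rose and 9 fell, of the 17 synthesis genes 2 rose and 7 fell, and of the 4 transporter genes 1 rose and 1 fell.

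Clock genes moved in the same comparison, and their part in the starch gene differences was not tested. From CTRL to LHSR12 all 6 morning genes of a list of 12 rose, and all 6 evening genes fell. LHY went from 107 and 57.9 scaled reads in CTRL to 12504 and 13841 in LHSR12, and CCA1 from 92.1 and 55.8 to 7531 and 8229. The evening gene TOC1 went from 7996 and 6626 to 791 and 733, and GI from 6697 and 4261 to 584 and 551. In LHS, by comparison, 3 morning genes were higher and 2 lower than in CTRL, and 3 evening genes lower. Of the 6 genes printed above for their evening element, SEX1, PWD, PGM1, ISA3 and DPE1 were lower in LHSR12 (−1.91 to −3.96) and GPT2 was higher. Of 670 tested protein-coding genes with an evening element in the window, LHSR12 was below CTRL in 46.4% and above it in 16.1%, beside 22.8% and 23.6% of all 22797 tested protein-coding genes. The lower share was above that of all genes in LHS and LHSR84 too. Against CTRL, 43.7% of the evening element genes were lower and 28.1% higher in LHS, beside 34.6% and 34.0% of all. In LHSR84 18.1% were lower and 6.57% higher, beside 5.65% and 9.14%. These shares were added after the values were seen and have no test.

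**Figure D3:**
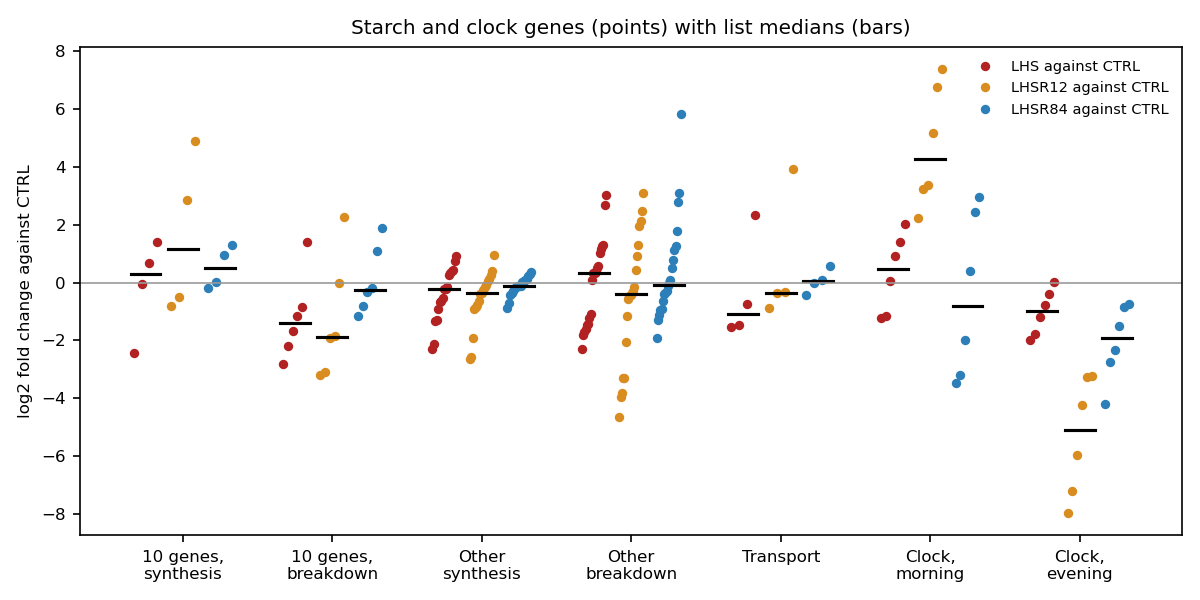
Log2 fold changes against CTRL (y axis) of the 10 starch genes, the 41 other pathway genes and 12 clock genes, as points by role and group, with list medians as bars. In LHS, LHSR12 and LHSR84 the medians are −0.98, −5.09 and −1.92 for the evening clock genes. They are −1.41, −1.88 and −0.26 for the breakdown genes among the 10, and 0.33, −0.40 and −0.07 for the other breakdown genes.

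The step from LHS to LHSR12 covers the first 12 h at 22 °C, though the hour of harvest is not given for either group. BAM3 rose 6.97-fold from its low value in heat, 2.80 (SE 0.13, adjusted p = 1.35e-06, limma), and APL1 rose 3.03-fold, 1.60 (SE 0.12, adjusted p = 1.05e-05). GBSS1 rose a further 11.3-fold, 3.49, APL3 4.50-fold, 2.17, and BAM1 1.82-fold, 0.86. PWD fell further by 2.22 on the log2 scale, SEX1 by 0.99, SEX4 by 0.69 and APS1 by 0.46. DPE2 was at −0.23 and was not called (95% interval −0.48 to 0.01). So 5 genes rose and 4 fell, where 31.1% of all loci rose and 31.1% fell (62.2% in all). The fall of APS1 was not called without LHSR12 replicate 1 (−0.38), nor with edgeR on the reads of 7 libraries (−0.41), where LHS has 1 library. In the pathway list 14 genes rose, led by BAM9 at 3.55 and SS3 at 2.56, and 22 fell, led by AT3G55760 at −2.45 and by the debranching enzyme gene ISA3 at −2.37. All 6 morning clock genes were higher in LHSR12 than in LHS (median 4.59) and all 6 evening genes lower (median −4.21). Of 6 leaf mesophyll markers 4 were higher and 0 lower, and of 5 guard cell markers 0 were higher and 2 lower. Root markers were higher in 5 of 7 and root cap markers in 1 of 3, with 0 lower in both. Of 3 seed markers tested 0 were higher and 1 lower. The part of clock genes and markers in these differences was not tested. This comparison and the previous one share the LHSR12 libraries.

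Between 12 h and 84 h of recovery the dikinase genes SEX1 and PWD regained RNA and GBSS1 lost it. From LHSR12 to LHSR84, PWD rose 6.68-fold, 2.74 (SE 0.12, adjusted p = 5.80e-06, limma), SEX1 4.02-fold, 2.01, SEX4 3.17-fold, 1.66, and DPE2 2.16-fold, 1.11. BAM3 rose once more, 3.68-fold, 1.88 (SE 0.13, adjusted p = 3.58e-05). GBSS1 fell 15.2-fold, −3.92 (SE 0.18, adjusted p = 5.96e-06), APL3 fell by 1.55 and BAM1 by 1.19 on the log2 scale. APL1 and APS1 rose by 0.64 and 0.52. Thus 7 genes rose and 3 fell, beside 16.5% and 19.5% of all loci (36.0% in all). APL3 lost its call without LHSR12 replicate 1 (−1.43, adjusted p = 0.0672, limma), and so did APS1 (0.44, adjusted p = 0.0647), which was also lost without LHSR84 replicate 2 (0.51, adjusted p = 0.0569). The adjusted p ran over the alternatives from 1.01e-06 to 0.0672 for APL3 and from 0.000206 to 0.0647 for APS1.

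Among the other pathway genes 18 rose between these times, PHS2 by 3.72, BAM6 by 3.24 and the limit dextrinase gene LDA by 3.15, and 9 fell, GPT2 by 3.36, GWD2 by 0.69 and BAM9 by 0.67. GWD2, a homologue of SEX1, thus moved against SEX1 and PWD, and it was also higher in LHSR12 than in CTRL, at 1.95. The count of 9 was 2 without either LHSR12 library and 3 without either LHSR84 library. All 6 morning clock genes fell and 5 of 6 evening genes rose over this step, with GI lower still. Leaf mesophyll markers rose in 5 of 6, guard cell markers in 4 of 5 and root cap markers in 2 of 3, with 0 lower. Of 7 root markers 2 rose and 2 fell, and of 3 seed markers tested 0 were called. How far the clock genes and markers bear on the starch genes was not tested.

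After 84 h of recovery BAM3, BAM1, APL3 and GBSS1 were above CTRL, and SEX1 and DPE2 below it. In LHSR84 against CTRL, BAM3 was 3.68-fold higher, 1.88 (SE 0.13, adjusted p = 9.03e-05, limma), BAM1 2.11-fold higher, 1.07 (SE 0.13, adjusted p = 0.00147), APL3 2.43-fold higher, 1.28 (SE 0.28, adjusted p = 0.0192), and GBSS1 1.94-fold higher, 0.96 (SE 0.18, adjusted p = 0.00930). SEX1 was 2.25-fold lower, −1.17 (SE 0.12, adjusted p = 0.000643), and DPE2 1.75-fold lower, −0.80 (SE 0.11, adjusted p = 0.00208). PWD at −0.34 (95% interval −0.61 to −0.07), SEX4 at −0.17 (−0.49 to 0.14), APL1 at −0.18 (−0.45 to 0.09) and APS1 (−0.25 to 0.28) were not called. The counts were 4 higher and 2 lower, where 8.59% and 4.87% of all loci were (13.5% in all). The medians were −0.08 for the 10 genes and 0 for all loci.

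These calls at 84 h lean on the spread of all 4 groups. Replicates differed most within CTRL, by a median of 0.257 on the log2 scale over loci with a mean of at least 10. The same median was 0.158 for LHSR84, 0.165 for LHSR12 and 0.168 for LHS. A spread shared by all groups may therefore understate the error of comparisons with CTRL. How far this bears on the calls was not tested. With CTRL and LHSR84 alone in the fit, limma called 0 of the 10 in either direction, 3 higher and 3 lower having an unadjusted p under 0.05. With no filter on low values APL3 was not called (1.28, adjusted p = 0.0506, limma). On the reads of 7 libraries edgeR and DESeq2 called 4 higher and 2 lower. APL3 and GBSS1 were not called without LHS replicate 1, LHS replicate 2, LHSR12 replicate 1, LHSR12 replicate 2 or LHSR84 replicate 2, which left 2 higher genes, and APL3 was also lost without LHSR84 replicate 1. Over all alternatives the adjusted p ran from 0.000495 to 0.247 for APL3 and from 0.000113 to 0.188 for GBSS1. Of the pathway list 7 genes were higher, BAM5 by 5.81, AMY1 by 3.10 and BAM6 by 2.78, and 10 were lower, AMY3 at −1.92, AT3G55760 at −1.31 and PHS1 at −1.14. Without either LHSR84 library the lower ones numbered 6. Of the 20 breakdown genes in the list 7 were higher and 6 lower, and the other 4 lower genes were synthesis genes. Clock genes differed from CTRL at this time too, 5 of 6 evening genes being lower, such as GI at −4.19 and TOC1 at −0.75, while 2 morning genes were higher, LHY at 2.42 among them, and 3 lower. Their part in the starch gene values was not tested. The 3 comparisons with CTRL share the CTRL libraries.

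The makeup of 2 enzyme families changed with these levels. APL1 made up 94.2% and 90.3% of the large subunit RNA per kb in the CTRL libraries, 63.9% and 64.4% in LHS, 65.1% and 70.8% in LHSR12, and 87.8% and 87.4% in LHSR84. APL3 made up 1.99% and 4.67%, 16.8% and 19.2%, 30.8% and 26.0%, and 7.49% and 8.54% in the same order, and the groups did not overlap. In LHS the share of APL2 was also high, at 16.6% and 14.0%, beside 1.96% to 3.64% in the other libraries. The family total was 1615 and 1641 scaled reads per kb in LHS against 6510.1 and 5632 in CTRL. So the larger share of APL3 in LHS came with a family total below that of CTRL, while APL3 itself was not called there.

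BAM3 made up 55.4% and 60.5% of the RNA of the 9 beta-amylase genes per kb in CTRL, 11.6% and 10.7% in LHS, 35.1% and 35.3% in LHSR12, and 70.2% and 70.7% in LHSR84. The share of BAM1 went the other way, 10.3% and 9.76% in CTRL, 34.2% and 37.3% in LHS, 30.1% and 28.6% in LHSR12, and 7.08% and 6.88% in LHSR84. BAM1 thus exceeded BAM3 in both LHS libraries and in no other library. BAM9 held 13.2% and 15.1% in LHSR12, more than in any library of the other groups. In total the family had 3565 and 4112 scaled reads per kb in CTRL, 2689.8 and 3006 in LHS, 6358 and 6252 in LHSR12, and 12457 and 10791 in LHSR84. BAM1 itself had means of 384, 1022, 1849 and 812 in the same order of groups. In LHSR84 its level was thus above that of CTRL while its share was below. Guard cell markers gave 1 higher and 1 lower gene of 5 in LHS, 1 higher and 3 lower in LHSR12, and 1 higher in LHSR84 (FAMA at 0.66, adjusted p = 0.0146, limma), and their summed level was 2184 to 2851 in CTRL, 1968 to 2076 in LHS, 1802 to 1971 in LHSR12 and 2764 to 3046 in LHSR84. Their part in the BAM1 values was not tested.

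**Figure D4:**
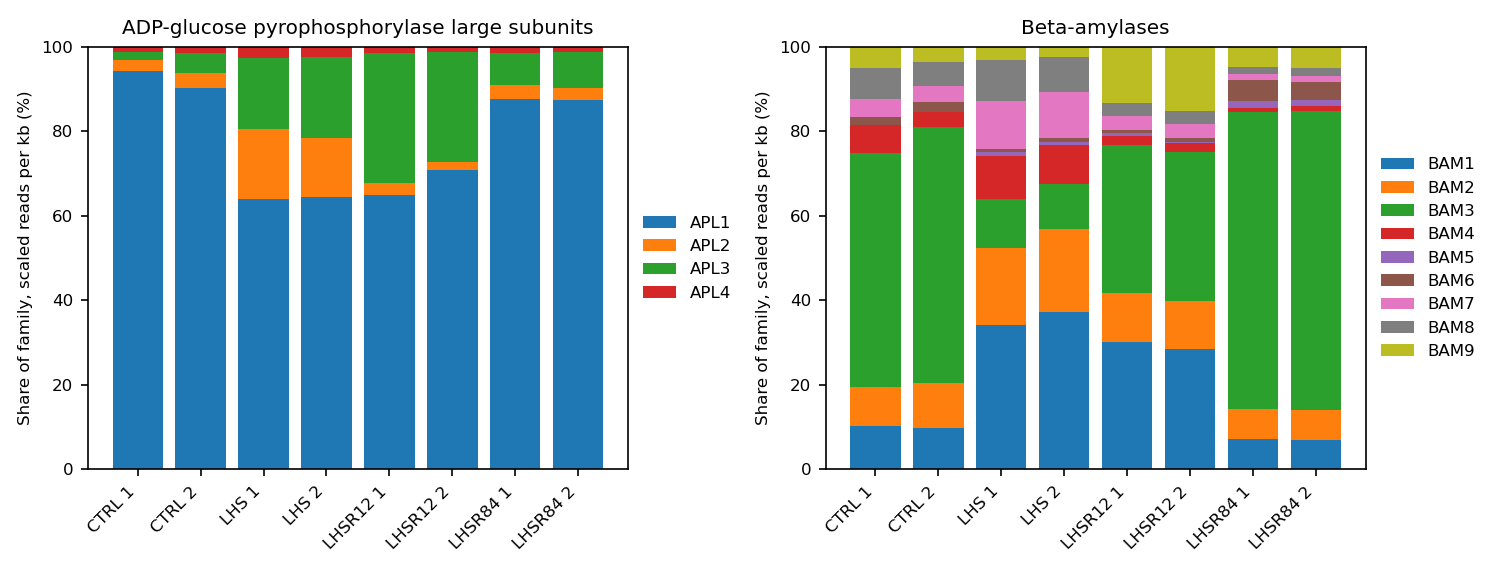
Share of each gene (y axis, percent of the family's scaled reads per kb) in the 8 libraries, for the 4 large subunit genes of ADP-glucose pyrophosphorylase and the 9 beta-amylase genes. APL3 reaches 30.8% and 26.0% in LHSR12, and BAM3 shrinks to 11.6% and 10.7% in LHS.

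Among the 10 genes and the 41 others, the gene with the most similar course was found for each of the 10, by the root mean square difference between the log2 fold changes against CTRL in the 3 other groups. SEX4 and the plastid phosphoglucomutase gene PGM1 lay closest, 0.121 apart on the log2 scale. APS1 was nearest to the debranching enzyme gene ISA1 (0.158), BAM1 to GWD2 (0.254), PWD to the starch synthase gene SS4 (0.342), DPE2 to PGM1 (0.369) and SEX1 to the plastid phosphorylase gene PHS1 (0.435). APL3 was nearest to BAM1 (0.552), and APL1 to the plastid glucose carrier gene pGlcT (0.595). GBSS1 and BAM3 had the most distant nearest genes, GPT2 at 0.809 and BAM6 at 0.815. Over 3 groups such a distance is a description only.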

How the data were processed

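RNA was measured in 8 libraries, 2 in each of 4 groups given by the sample titles. The labels' protocols give TRIzol extraction and strand-specific libraries. Per the submitters' processing notes DESeq2 1.14.1, HTSeq 0.9.1, STAR 2.5.3a and CASAVA were used with the build TAIR10. Their roles are not given there. The strand setting in counting is not given in the sources used here. The deposited values are a signal per locus, a read count divided by a factor of the library. In each library 100% of the values above 0 came out as whole numbers of 1 step (tolerance 0.001). Read counts were recovered for 7 libraries. In LHS replicate 1 the step is too near 1 to take counts from it.

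The design named edgeR for counts and, for other units, the test used here, limma-trend (limma 3.58.1, R 4.3.3) on log2 of the value plus 1, with all 8 libraries in one fit and each comparison as a contrast. Loci with a mean of at least 1 were tested. A locus is called when its p, adjusted by Benjamini-Hochberg over all 27638, is below 0.05. Fold changes are on that log2 scale and understate those of low genes. The tests were tried on simulated libraries. Alternatives were a pseudocount of 0.1, no filter, only the 2 groups compared, a replicate block, TMM scaling, edgeR 4.0.16 and DESeq2 1.42.0 on the recovered counts, and each library left out.

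The 10 genes, the gene lists and the motifs were chosen with earlier results of these data known. Named were the 10 genes and, of the other pathway genes, up to 3 called genes with non-overlapping libraries and the largest change in each direction of a comparison, with the family members and the genes of similar course. Of clock genes CCA1, LHY, TOC1 and GI were named. All 10 identifiers were found in the RefSeq annotation of TAIR10.1, whose positions, exon lengths (all transcripts joined) and sequences were used. SBE2.1 and AT3G55760 are named as in that annotation. Positions count from 1.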

Additional observations from a re-analysis of the deposited data

How the results depend on the processing

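Of 50 differences of single genes (10 genes in 5 comparisons) 42 were called, and 32 of these kept direction and call under all 15 alternatives. With only the 2 groups compared, LHSR84 against CTRL gave 0 higher and 0 lower of the 10 genes, and 0 higher and 1 lower of the pathway list (unadjusted p under 0.05 for 7 higher and 12 lower), while 365 loci were called in place of 3718. The edgeR and DESeq2 fits called 3320 and 3577 loci there. The same setting gave 9 higher pathway genes in LHS against CTRL. Leaving out one library at a time, the 10 genes higher in LHSR84 than in CTRL numbered 2 to 4, pathway genes higher in LHS 8 to 12, pathway genes lower in LHSR84 than in CTRL 6 to 11, and pathway genes lower in LHSR84 than in LHSR12 2 to 9. Small differences that were not called changed sign: APS1 in LHS against CTRL was 0.01 without CTRL replicate 2 (−0.10 to 0.01 over single libraries left out), APS1 in LHSR84 against CTRL was −0.04 without CTRL replicate 1 and −0.00053 without LHSR84 replicate 2 (−0.04 to 0.07). BAM3 in LHSR12 against CTRL was −0.0022 with TMM scaling, −0.02 with edgeR, −0.01 with DESeq2, −0.17 without CTRL replicate 1 and −0.01 without LHSR12 replicate 1 (−0.17 to 0.17). The causes were not tested.

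No pairing by equal replicate numbers was seen, the correlation of their deviations running from −0.11 to 0.09 between groups. The labels do not say whether such libraries share a culture or batch, and these correlations cannot decide it. With the replicate block, 1 of the 50 gene differences changed its call, APL3 in LHS against CTRL (0.66, adjusted p = 0.0478, limma), so that 3 of the 10 genes were higher there.

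TMM scaling, edgeR and DESeq2 shifted the log2 fold changes by a median over loci of at most 0.043 in either direction in any comparison. With 2 libraries in each group some intervals are wide, such as those of APL3, whose CTRL libraries had 272 and 554 scaled reads. A difference that was not called may still exist. Leaving out 1 library leaves its group with a single one, assumed to vary like the other groups.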
